A study of Danio rerio with 24 samples.

Results

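Gene expression at the gastrula stage was compared between zebrafish embryos exposed to TDCIPP, a chlorinated organophosphate flame retardant, and embryos exposed to its vehicle, dimethyl sulfoxide (DMSO). The comparison took every pool collected at 6 h post-fertilization (hpf), which came to 6 of the 12 RNA pools and 12 of the 24 arrays of the series. The TDCIPP group held 3 pools in 2 µM TDCIPP, prepared from stocks in DMSO, and the DMSO group held 3 pools in 0.1% DMSO with no TDCIPP. Each pool consisted of 25 whole embryos of the 5D wildtype line, and exposure started at 0.75 hpf in both groups, when embryos have 2 cells. The remaining pools had the same treatments and were collected at 2 hpf. They serve here to show whether a difference was already there before gastrulation and how signals changed with time. Each RNA pool was hybridized to 2 arrays of the type Zebrafish Gene 1.0 ST, and the deposited log2 signals of both arrays were averaged, so that each pool counted once. A pool of whole embryos mixes all cell types, so fewer cells of a type and less RNA per cell cannot be told apart in any result given here. The labels do not say how far the embryos of each pool had developed.

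Between cleavage and gastrulation the zebrafish embryo passes from maternal to zygotic control, when maternal transcripts are cleared and the embryo starts to transcribe its own genome. In the gastrula, bone morphogenetic protein (BMP) ligands made on the ventral side bind pairs of type I and type II receptors, which phosphorylate Smad proteins and turn on ventral genes. Secreted antagonists from the dorsal organizer, such as chordin, keep BMP ligands from their receptors, and the resulting gradient separates epidermis from neural tissue and ventral from dorsal mesoderm. At this stage the embryo is covered by the enveloping layer, a tight epithelium that spreads over the yolk with the underlying cells during epiboly.

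The pools carried transcripts of the tissues of the early embryo, a check that does not date the embryos. All 14 early markers checked, for ectoderm, mesendoderm, endoderm, the enveloping layer, the yolk syncytial layer and germ cells, had mean signals above the array medians of 4.472 to 4.543 in both groups. The signal of tbxta, a T-box gene of the mesoderm, was 10.57 ± 0.13 in TDCIPP and 10.51 ± 0.40 in DMSO pools, and that of krt4, a keratin gene of the enveloping layer, was 11.3 ± 0.094 in TDCIPP and 11.07 ± 0.096 in DMSO pools (SD, n = 3 each). Of 5 markers of later tissues, myhz2, hbbe3 and mbpa were below these medians in both groups. The others were not, namely ins at 4.74 in TDCIPP and 4.86 in DMSO pools and actc1b at 7.24 in TDCIPP and 7.14 in DMSO pools.

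The pools of both groups were alike over all probes. The correlation of log2 signals was 0.9853 to 0.9882 between the 2 arrays of a pool, 0.9832 to 0.9872 between arrays of different treatments, and 0.9829 to 0.9868 between arrays from different pools of 1 treatment. For 8 of the 12 arrays the closest array was the other one from the same pool. The median SD was 0.199 between the arrays of a pool and 0.149 between pool means of 1 treatment. DMSO replicate 3 stood apart in gene lists. Over all clusters it did not, with correlations between pool means of 0.9912 to 0.9923 to the other pools (0.9909 to 0.9927 for DMSO replicate 2). The lists share some genes, so they are not independent. They were written with earlier results of these data known and include genes described below for their differences. Their counts beside the shares of all genes are therefore descriptions and no test. Of 35 gene lists (BMP signaling, other pathways, tissues and cell functions) the mean of DMSO replicate 3 was the lowest of the 6 pools in 22. The other pools had the lowest mean in 1 to 7 lists each, and DMSO replicate 3 was the pool with the most. It lay 0.32 below the mean of all pools for enveloping layer genes, 0.27 for mesoderm genes, 0.23 for dorsal organizer genes and 0.19 for BMP-responsive ventral genes. The medians of these lists, and of others whose sign or size turned on it, are given with and without it, and its part in other results was not tested beyond the leave-one-out fits.

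With each pool counted once, none of 61240 transcript clusters (the array's unit, roughly a gene or part of one) passed an adjusted p under 0.1 at 6 hpf (limma with Benjamini-Hochberg adjustment, smallest adjusted p = 0.245). The background of the comparison is therefore 0.0% called, and 3356 clusters (5.48%) had an unadjusted p under 0.05. TDCIPP pools were higher in 1627 of these (2.66% of all clusters) and lower in 1729 (2.82%). The 3 TDCIPP pools lay beyond the 3 DMSO pools for 6716 clusters (11.0%) and for 2252 genes (11.7%), and a gene whose groups of pools are called separate below is to be read against that share. For the 19298 genes named by the array annotation, each taken at its brightest cluster, the unadjusted p was under 0.05 for 650 higher genes (3.37%) and 386 lower genes (2.0%), and the mean was higher with TDCIPP in 54.9% of genes. Clusters with no gene symbol leaned the other way, with 910 higher and 1283 lower. The median width of the 95% interval, before adjustment, was 0.274 on each side of a gene's log2 difference. Many smaller changes were thus not detectable with 3 pools a group. After adjustment over all clusters the limit was far wider, since even a cluster with a log2 difference of -2.06 did not pass.

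Most differences were small. A log2 difference of at least 0.5 in size was measured for 734 clusters (1.2%) and 143 genes, 89 higher and 54 lower with TDCIPP. Only 7 genes differed by at least 1 at the cluster that stood for them, and foxb1a did so at its other cluster (1.03). The 2 lower ones of the 7 were tfap2c, an AP-2 transcription factor gene of the ectoderm, which alone differed by at least 1.5, and bmp4, a BMP ligand gene. The 5 higher ones were foxi1, arl3l1 and ovol1b, which are described below, and dmbx1a (1.42) and prdm14 (1.07), which were picked with their values in view. In the array-level fit the adjusted p was 0.114 for dmbx1a and 0.426 for prdm14. The homeobox gene dmbx1a, of the anterior neural plate, was at 5.83, 5.20 and 6.85 in TDCIPP pools and 4.50, 4.73 and 4.38 in DMSO pools (adjusted p = 0.705 from pool means). Its groups were separate, with a wide spread among the TDCIPP pools.

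A second fit took all 12 arrays as they are and tied those of a pool together by a random effect (limma with the pool as a random block), and it is called the array-level fit below. It passed 52 clusters (0.0849%) at an adjusted p under 0.1, and these split into 25 higher (0.0408%) and 27 lower (0.0441%) ones. Its estimated correlation between arrays of a pool was 0.0603, so it treats the 2 arrays nearly as separate samples. The same value served every cluster. At a mean log2 signal of 8 or more, the median SD was 0.103 between pool means and 0.112 between arrays of a pool. Under a signal of 5 it was 0.152 between pool means and 0.215 between arrays, so the value may be too low for bright clusters. The 32 annotated clusters among the 52 belong to 31 genes (0.161% of genes), of which 19 (0.0985%) were higher and 12 (0.0622%) lower. The other 20 carry no gene symbol, and 15 of these were lower. The count depended on single pools. It was 1 without DMSO replicate 1, 6 without TDCIPP replicate 3, 19 without TDCIPP replicate 1 and 37 without DMSO replicate 3. The clusters changed as well as the count. Of the 37 without DMSO replicate 3, 22 were among the 52, and of 74 without TDCIPP replicate 2, 34 were. Named genes past the threshold numbered 0 without DMSO replicate 1 and 3 without TDCIPP replicate 3. From pool means, 14 clusters (0.0229%) passed with limma's trend and robust options and 17 (0.0278%) with the spread shared by all 4 groups of the series. Clusters past the threshold in both of these and in the array-level fit numbered 7, and they included 2 named genes, kazald2 and arl3l1.

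**Figure D1:**
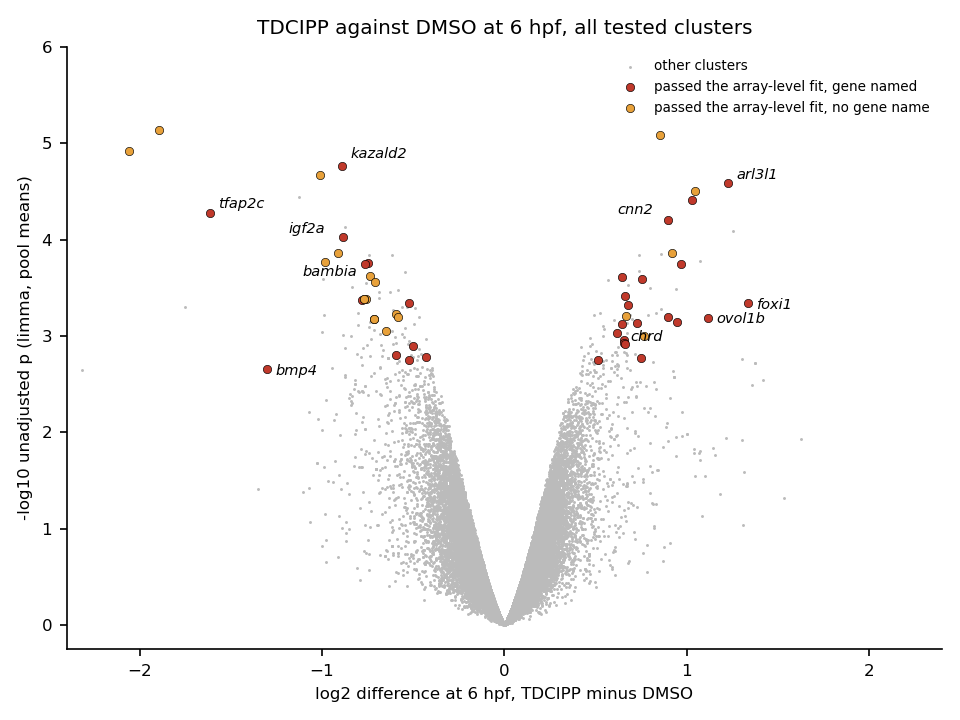
Log2 difference of each transcript cluster at 6 hpf, TDCIPP minus DMSO (x axis), against the -log10 of its unadjusted limma p from 3 pools a group (y axis). Coloured points are the 52 clusters that passed an adjusted p under 0.1 in the array-level fit (pool as a random block), 32 with a gene name and 20 without, and no cluster passed from pool means alone.

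The clusters that passed the array-level fit had the same sign throughout. The TDCIPP and DMSO pools of all 52 were separate, and the sign did not change on either array of the pools alone or in any of 6 fits without 1 pool. These clusters were chosen on the same arrays, so this describes them and adds no test. Their differences ran from 0.431 to 2.06 in size, with a median of 0.755. Among them, 43 were more than 1 log2 unit higher at 6 than at 2 hpf in DMSO pools, compared with 6.66% of all clusters. A mean log2 signal of 8 or more at 6 hpf was found for 26, compared with 11.7% of all clusters. For such bright clusters the correlation used by the array-level fit may be too low, and its part in this share was not tested.

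The BMP ligand genes differed in direction. The signal of bmp4, a ventral ligand gene, was 5.65, 6.32 and 6.04 in TDCIPP pools and 7.27, 7.98 and 6.66 in DMSO pools. The groups did not overlap, although DMSO replicate 3 came within 0.34 of the highest TDCIPP pool. The log2 difference of bmp4 was -1.30 (adjusted p = 0.681 from pool means and 0.0935 in the array-level fit, with a standard error, SE, of 0.30), a 2.47-fold lower signal with TDCIPP. For bmp7a, which with Bmp2 forms the main heterodimer of the gastrula, the log2 difference was -0.43 (8.28, 8.41 and 8.44 in TDCIPP pools, 8.88, 8.75 and 8.77 in DMSO pools). For bmp2b it was -0.42 (8.10, 8.24 and 8.10 in TDCIPP pools, 8.70, 8.47 and 8.51 in DMSO pools). Neither of these passed in either fit, but the pools of the groups were separate in both. The ligand gene admp, made by the organizer, pointed the other way, with 9.71, 9.17 and 9.09 in TDCIPP pools and 8.85, 8.61 and 8.93 in DMSO pools, a log2 difference of 0.53 that did not pass (adjusted p = 0.814). Of 9 measured ligands and ligand-releasing proteases, 1 was higher and 3 were lower at an unadjusted p under 0.05, where 3.37% of all genes were higher and 2.0% lower. Their median difference was 0.042, against 0.017 over all genes, and it was -0.063 without DMSO replicate 3.

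Receptors and Smads differed little apart from bmpr1aa, a type I BMP receptor gene. Its signal was 6.42, 6.54 and 6.44 in TDCIPP pools and 7.06, 6.98 and 6.94 in DMSO pools, with a gap of 0.40 between the groups. The log2 difference was -0.52 (adjusted p = 0.548 from pool means and 0.0985 in the array-level fit, SE 0.096), and a further cluster of the same gene had 5.79, 5.73 and 5.54 in TDCIPP pools and 6.30, 6.08 and 6.10 in DMSO pools. Of the 10 measured members, bmpr1aa was the only one with an unadjusted p under 0.05, where 3.37% of all genes were higher and 2.0% lower. The median was -0.038 (-0.022 without DMSO replicate 3). The next were bmpr1bb at 0.27, bmpr1ab at -0.21 and smad1, an effector of the pathway, at -0.26, each with overlapping pools. The sign of smad1 turned to 0.21 on the second array of each pool alone.

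Antagonists and feedback inhibitors of BMP signaling were found on both sides. The signal of bambia, whose product is a pseudoreceptor that BMP signaling itself induces, was 9.30, 9.49 and 9.38 in TDCIPP pools and 10.30, 10.23 and 9.94 in DMSO pools. That of chrd, the gene of the antagonist chordin, was 10.35, 10.07 and 10.53 in TDCIPP pools and 9.64, 9.70 and 9.67 in DMSO pools. Every TDCIPP pool was below every DMSO pool for bambia and above every DMSO pool for chrd. The log2 difference was -0.76 for bambia (adjusted p = 0.424 from pool means and 0.0335 in the array-level fit, SE 0.12) and 0.65 for chrd (adjusted p = 0.570 from pool means and 0.0383 in the array-level fit, SE 0.13). The antagonist gene nog1 was at 5.51, 5.96 and 6.38 in TDCIPP pools and 5.45, 5.43 and 5.25 in DMSO pools, so that TDCIPP replicate 1 was only just above the DMSO pools, and it passed in neither fit (difference 0.57). For twsg1b, whose product modulates chordin, the difference was -0.47, also not past the threshold. Of 17 measured members, 3 were higher and 2 lower at an unadjusted p under 0.05, against 3.37% and 2.0% of all genes, and the median was -0.055 (-0.109 without DMSO replicate 3).

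Genes that BMP signaling turns on in ventral cells had mostly lower means, with no member past the threshold in either fit. Of 14 measured, 5 had a higher and 9 a lower mean with TDCIPP, while 54.9% of all genes had a higher mean. At an unadjusted p under 0.05, 0 were higher and 4 lower, against 3.37% and 2.0% of all genes, and their median was -0.15, against 0.017 over all genes. The homeobox gene vent, a repressor of dorsal genes, was at 7.80, 8.01 and 7.87 in TDCIPP pools and 8.98, 8.92 and 8.17 in DMSO pools (difference -0.80, adjusted p = 0.742). Its partner vox was at 10.58, 10.68 and 10.57 in TDCIPP pools and 11.04, 11.01 and 10.76 in DMSO pools (difference -0.33). For eve1, a homeobox gene of the ventral margin, the signal was 6.76, 7.22 and 6.83 in TDCIPP pools and 8.09, 8.46 and 6.82 in DMSO pools. In each of these genes DMSO replicate 3 was the lowest DMSO pool, and for eve1 it lay inside the range of the TDCIPP pools. The median of the list was -0.281 without that pool, and the difference of eve1 ran from -1.34 to -0.52 over the leave-one-out fits. The homeobox gene msx3 (difference -0.76) had pool signals between 2.81 and 4.24, under the array medians.

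**Figure D2:**
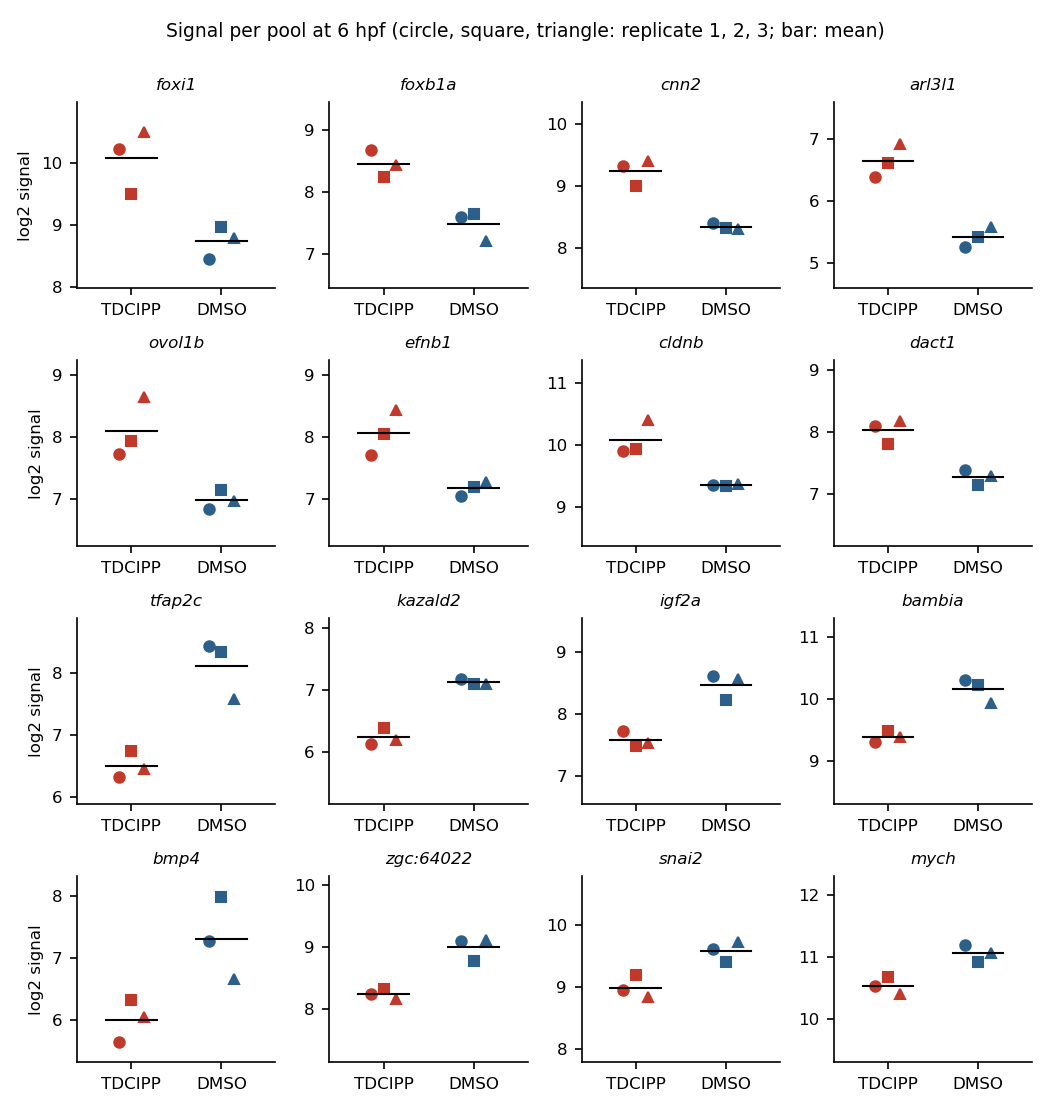
Log2 signal (y axis) of 16 genes in the 3 TDCIPP and the 3 DMSO pools at 6 hpf; circle, square and triangle are replicates 1, 2 and 3, and the bar is the group mean. All y axes span 3 log2 units, and the TDCIPP pools lie on 1 side of all DMSO pools in each panel. DMSO replicate 3 is the DMSO pool nearest to them for tfap2c, bambia, bmp4, arl3l1, efnb1 and cldnb. For kazald2, DMSO replicates 2 and 3 are both at 7.10.

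Transcription factor genes of the non-neural ectoderm gave the largest differences among the named genes that passed the array-level fit, in opposite directions. The forkhead gene foxi1, which acts in the epidermal and otic lineages, was at 10.22, 9.50 and 10.50 in TDCIPP pools and 8.45, 8.97 and 8.79 in DMSO pools. The AP-2 gene tfap2c was at 6.32, 6.73 and 6.45 in TDCIPP pools and 8.43, 8.33 and 7.58 in DMSO pools. Replicate 2 of TDCIPP was nearest to the DMSO pools in both genes, and the groups were 0.53 apart for foxi1 and 0.85 apart for tfap2c. The log2 difference was 1.33 for foxi1 (adjusted p = 0.548 from pool means and 0.0325 in the array-level fit, SE 0.24), a 2.52-fold higher signal with TDCIPP. It was -1.61 for tfap2c (adjusted p = 0.321 from pool means and 0.0121 in the array-level fit, SE 0.22), a 3.06-fold lower signal. Of 15 measured genes of this group, 12 had a higher mean with TDCIPP, against 54.9% of all genes. At an unadjusted p under 0.05, 7 were higher and 3 lower, against 3.37% and 2.0% of all genes, and the median was 0.276 (0.197 without DMSO replicate 3). These counts include foxi1 and tfap2c, and the list was written with earlier results of these data known, so they add no test. The AP-2 gene tfap2a was at 8.74, 8.51 and 9.20 in TDCIPP pools and 7.97, 8.14 and 8.31 in DMSO pools, and the GATA factor gene gata3 was at 9.61, 9.41 and 9.94 in TDCIPP pools and 9.10, 9.14 and 9.17 in DMSO pools. Both were picked after their values were seen, and neither passed. The epidermal gene tp63 was lower (difference -0.53, adjusted p = 0.748), so that the sign was not shared within the group.

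Of 30 measured adhesion and migration genes, 14 had a higher and 16 a lower mean with TDCIPP, with a median of -0.017 (-0.056 without DMSO replicate 3). At an unadjusted p under 0.05, 2 were higher and 2 lower, against 3.37% and 2.0% of all genes. Some genes that passed the array-level fit are known from epithelia and cell contacts, and they are given here by name and were not tested as a group. The zinc finger gene ovol1b, of a family known from epithelia, was at 7.73, 7.93 and 8.64 in TDCIPP pools and 6.84, 7.14 and 6.97 in DMSO pools, a log2 difference of 1.12 (adjusted p = 0.554 from pool means and 0.0559 in the array-level fit, SE 0.22). The claudin gene cldnb, of tight junctions, was at 9.90, 9.93 and 10.40 in TDCIPP pools and 9.35, 9.33 and 9.37 in DMSO pools, a difference of 0.73. The ephrin gene efnb1, whose product binds Eph receptors on neighbouring cells, was at 7.71, 8.04 and 8.42 in TDCIPP pools and 7.04, 7.18 and 7.27 in DMSO pools, a difference of 0.89. TDCIPP replicate 3 was the highest pool in all 3 genes, and the DMSO pools were close together, within 0.04 for cldnb. In the array-level fit the adjusted p was 0.0935 for cldnb and 0.0848 for efnb1. The chemokine receptor gene ackr3b, whose product takes up the ligand Cxcl12, was at 9.27, 9.01 and 9.64 in TDCIPP pools and 8.54, 8.39 and 8.74 in DMSO pools (difference 0.75, adjusted p = 0.0848 in the array-level fit). On the lower side was snai2, a zinc finger gene of epithelial-mesenchymal transition, at 8.95, 9.19 and 8.84 in TDCIPP pools and 9.62, 9.41 and 9.73 in DMSO pools (difference -0.60, adjusted p = 0.0848 in the array-level fit).

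Among genes of the cytoskeleton and of intracellular signaling, cnn2, a calponin gene whose product binds actin, was at 9.33, 9.0 and 9.40 in TDCIPP pools and 8.40, 8.33 and 8.31 in DMSO pools. The lowest TDCIPP pool was 0.60 above the highest DMSO pool, and the log2 difference was 0.90 (adjusted p = 0.340 from pool means and 0.0121 in the array-level fit, SE 0.12). The GTPase gene arl3l1 was at 6.39, 6.61 and 6.92 in TDCIPP pools and 5.26, 5.41 and 5.58 in DMSO pools, a difference of 1.23 (adjusted p = 0.264 from pool means and 0.0167 in the array-level fit, SE 0.15). Replicates 1, 2 and 3 had the same order in both groups of arl3l1. Of 26 measured calponin and actomyosin genes, 4 were higher and 0 lower at an unadjusted p under 0.05, against 3.37% and 2.0% of all genes. They were cnn2, tagln2 (0.39), rhogb (0.28) and actb2 (0.28), and the list median was 0.036. In Wnt signaling, dact1, whose product binds Dishevelled, was at 8.10, 7.81 and 8.17 in TDCIPP pools and 7.39, 7.14 and 7.29 in DMSO pools, a difference of 0.75 that passed the array-level fit (adjusted p = 0.0310). The related dact2 (0.42) and the secreted inhibitor gene sfrp1a (0.50) were also separate between the groups and did not pass. The 31 measured Wnt pathway genes held 3 higher and 0 lower ones at an unadjusted p under 0.05, against 3.37% and 2.0% of all genes. Their median was 0.015 (-0.068 without DMSO replicate 3).

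Neural and growth factor genes that passed the array-level fit included foxb1a, a forkhead gene of the neural ectoderm. It was at 8.68, 8.24 and 8.43 in TDCIPP pools and 7.60, 7.64 and 7.21 in DMSO pools, a log2 difference of 0.97 (adjusted p = 0.424 from pool means and 0.0151 in the array-level fit, SE 0.16). The second cluster of foxb1a was at 9.10, 8.77 and 8.77 in TDCIPP pools and 7.85, 8.02 and 7.67 in DMSO pools, so that both clusters were separate between the groups. Its difference was 1.03 (adjusted p = 0.264 from pool means and 0.0167 in the array-level fit, SE 0.13). Among 29 measured neural ectoderm genes, 2 were higher and 2 lower at an unadjusted p under 0.05, against 3.37% and 2.0% of all genes. Their median was 0.023 (-0.012 without DMSO replicate 3). The growth factor gene igf2a was at 7.73, 7.48 and 7.54 in TDCIPP pools and 8.61, 8.23 and 8.56 in DMSO pools, a difference of -0.89 (adjusted p = 0.383 from pool means and 0.0347 in the array-level fit, SE 0.13). The gene kazald2, named for the Kazal-type domain of its product, was at 6.14, 6.39 and 6.19 in TDCIPP pools and 7.18, 7.10 and 7.10 in DMSO pools. From pool means it had the smallest adjusted p of the annotated genes (0.261, and 0.0121 in the array-level fit), with a difference of -0.89 and leave-one-out values from -0.96 to -0.84. Of 19 measured genes of the insulin-like growth factor pathway, kazald2 and igf2a were the only lower ones at an unadjusted p under 0.05. The list median was -0.015 (-0.029 without DMSO replicate 3), and 3.37% of all genes were higher and 2.0% lower at that p. The gene igfbp3, whose product binds the growth factors, was higher at that p, at 4.83, 4.72 and 4.91 in TDCIPP pools and 4.48, 4.40 and 4.44 in DMSO pools. Its DMSO signals were near or under the array medians. The difference was 0.74 on array 1 of the pools but 0.022 on array 2, and it did not pass the array-level fit (adjusted p = 0.768).

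The Myc family gene mych was at 10.53, 10.67 and 10.40 in TDCIPP pools and 11.19, 10.91 and 11.06 in DMSO pools, a difference of -0.52 that passed the array-level fit (adjusted p = 0.0848). Its relative mycn was at 7.03, 7.30 and 7.20 in TDCIPP pools and 7.72, 7.62 and 7.70 in DMSO pools, a difference of -0.50 that passed neither fit (adjusted p = 0.666, and 0.120 in the array-level fit). Both Myc genes thus had separate groups of pools and differences of like size. Other lower genes that passed the array-level fit were zgc:64022 (-0.75), the endothelin-converting enzyme gene ece1 (-0.50) and the zinc finger gene ZNF800 (-0.43).

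Genes of enzymes and transporters that passed the array-level fit lay on both sides and were not tested as a group. The monocarboxylate transporter gene slc16a6a was at 5.58, 5.75 and 5.26 in TDCIPP pools and 6.19, 6.31 and 6.43 in DMSO pools (difference -0.78, adjusted p = 0.0913 in the array-level fit). Of 25 measured amino acid and monocarboxylate transporter genes, 3 were higher and 2 lower at an unadjusted p under 0.05, against 3.37% and 2.0% of all genes. Their median was 0.002 (-0.077 without DMSO replicate 3). The cytochrome P450 gene cyp2aa8 was at 10.14, 10.11 and 10.07 in TDCIPP pools and 9.52, 9.58 and 9.29 in DMSO pools, a difference of 0.65 (adjusted p = 0.469 from pool means and 0.0222 in the array-level fit, SE 0.11). The TDCIPP pools agreed within 0.07, and DMSO replicate 3 was the lowest pool. The sulfotransferase gene sult6b1 was at 11.25, 11.08 and 11.51 in TDCIPP pools and 10.72, 10.61 and 10.66 in DMSO pools (0.62, adjusted p = 0.0455 in the array-level fit). The acyl-CoA synthetase gene acsbg2 (0.52), ptgdsb.1, of the prostaglandin D synthase family (0.65), and the galactosyltransferase gene b3galt10.1 (0.66) also passed the array-level fit. Further genes that did were FAM181B (0.95), the Krüppel-like factor gene klf11b (0.68), the cyclin gene ccng2 (0.66) and depdc7a (0.66), for each of which the groups did not overlap. Of 25 measured genes of the aryl hydrocarbon receptor and drug metabolism, 2 were higher and 0 lower at an unadjusted p under 0.05. This compares with 3.37% and 2.0% of all genes, and the list median was 0.026. The higher ones were cyp2aa8 and ahrrb, a repressor of that receptor (0.39), whose DMSO signals were under the array medians.

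Clusters without a gene symbol included the largest difference among those that passed. Cluster 13224270 was at 3.38, 3.97 and 3.04 in TDCIPP pools and 5.70, 5.21 and 5.66 in DMSO pools, a log2 difference of -2.06 (adjusted p = 0.245 from pool means and 0.0383 in the array-level fit, SE 0.23). Its TDCIPP signals were below the array medians. Cluster 13275753 was at 5.37, 5.31 and 5.39 in TDCIPP pools and 7.59, 7.42 and 6.74 in DMSO pools, a difference of -1.9 (adjusted p = 0.245 from pool means, SE 0.2). Its adjusted p in the array-level fit, 0.00135, was the smallest of all clusters. Cluster 13299878 was at 7.39, 7.42 and 7.45 in TDCIPP pools and 6.59, 6.52 and 6.60 in DMSO pools, a difference of 0.85 with an SD of 0.026 in TDCIPP and 0.042 in DMSO pools. Cluster 13032086 was at 6.85, 6.92 and 7.12 in TDCIPP pools and 5.67, 6.05 and 6.03 in DMSO pools. Each of these had separate groups of pools, and 4 of the 20 clusters were copies of 2 sets of identical values. No gene name is given for them because the annotation used here holds none.

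**Figure D3:**
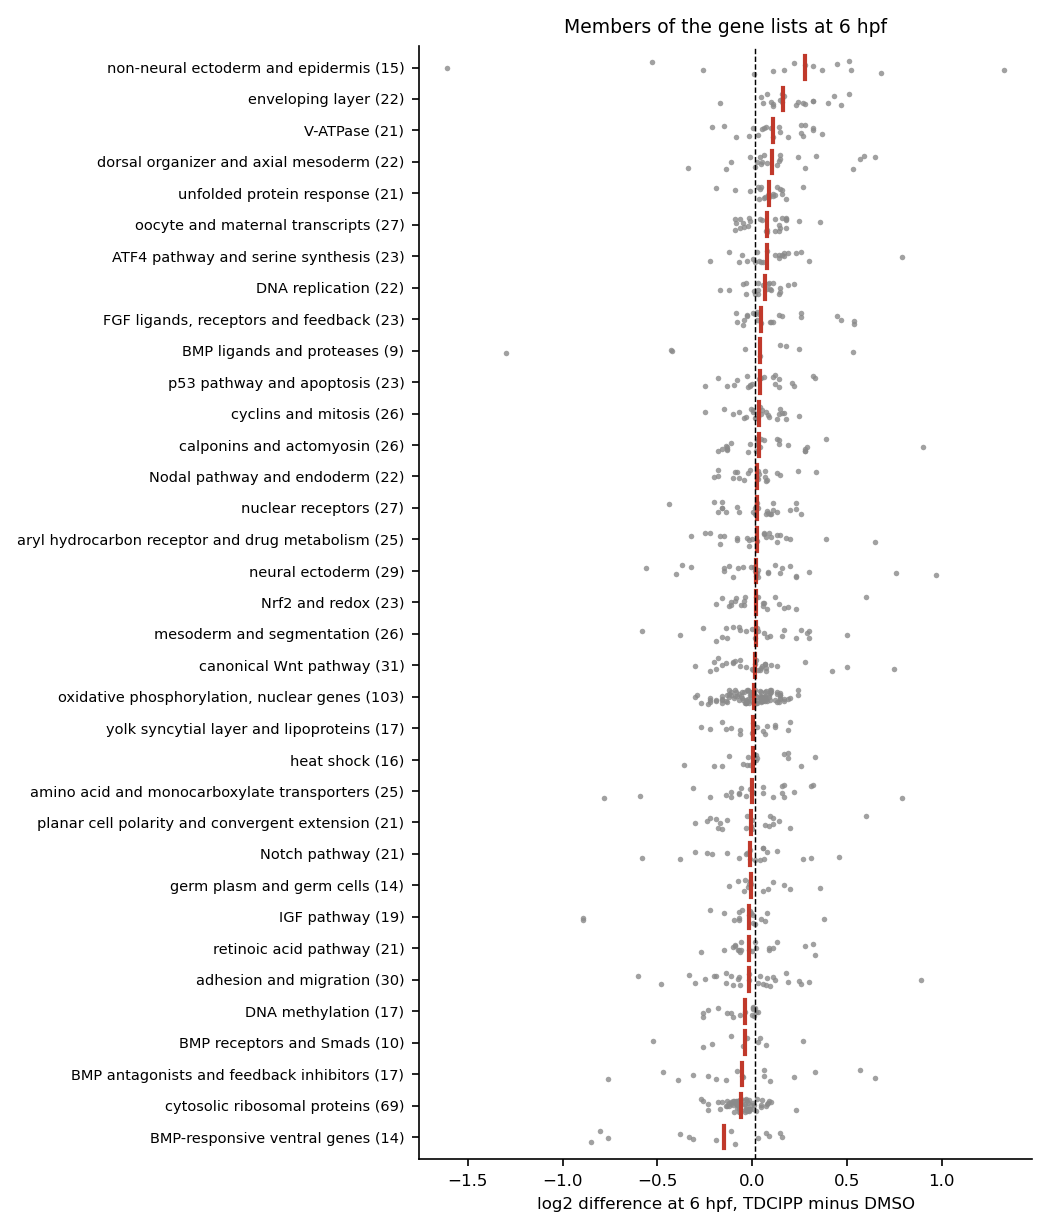
Log2 difference at 6 hpf, TDCIPP minus DMSO (x axis), of each measured member (grey points) of 35 gene lists, with the list median (red bar), the number of members in brackets and the median of all genes, 0.017 (dashed line). Non-neural ectoderm and the enveloping layer have the highest medians, 0.276 and 0.166, and BMP-responsive ventral genes the lowest, -0.15.

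The lists of tissues and pathways differed in how many members lay on 1 side, and each is to be read beside all genes, of which 54.9% had a higher mean and 3.37% were higher and 2.0% lower at an unadjusted p under 0.05. Of 22 measured enveloping layer genes, 21 had a higher mean with TDCIPP, with a median of 0.166 (0.115 without DMSO replicate 3), yet only 3 were higher at that p and 0 lower. The transcription factor gene klf17, an early gene of this layer, was at 10.27, 10.18 and 10.53 in TDCIPP pools and 9.98, 9.86 and 9.94 in DMSO pools (0.40, adjusted p = 0.778). The factor gene grhl3, which acts in surface epithelium, was at 10.90, 10.71 and 11.15 in TDCIPP pools and 10.38, 10.32 and 10.51 in DMSO pools (0.51, adjusted p = 0.732). As a mean over the list, the pools overlapped, with TDCIPP replicate 1 at -0.09 and DMSO replicate 2 at 0.08 relative to all pools. Of 22 dorsal organizer and axial mesoderm genes, 18 had a higher mean, with a median of 0.104 that was 0.012 without DMSO replicate 3, and 4 were higher and 0 lower at that p. They were chrd, admp, nog1 and foxd3, a forkhead gene of the organizer (0.59). The 23 measured genes of fibroblast growth factor (FGF) signaling held 5 higher and 0 lower at that p, with a median of 0.049 that was -0.005 without DMSO replicate 3. Among them was the feedback inhibitor gene spry4, at 6.57, 6.59 and 6.65 in TDCIPP pools and 6.34, 5.99 and 5.86 in DMSO pools.

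Most other tissue lists were near the median of all genes, 0.017. Oocyte and maternal transcripts (27 measured) lay above it, with 17 higher means and a median of 0.079 (0.11 without DMSO replicate 3). Of these, 1 was higher and 0 lower at an unadjusted p under 0.05. For this and the counts that follow, 3.37% of all genes were higher and 2.0% lower at that p. The 26 measured mesoderm and segmentation genes had a median of 0.020 (-0.024 without DMSO replicate 3), with 1 higher and 2 lower at an unadjusted p under 0.05, and the lower ones were hes6, a segmentation gene (-0.58), and tbx16 (-0.26). The signal of tbx16, a T-box gene of presomitic mesoderm, was 11.62, 11.66 and 11.59 in TDCIPP pools and 11.94, 11.88 and 11.83 in DMSO pools, a small difference with separate pools that passed neither fit. Nodal and endoderm genes (22 measured) held 1 higher and 0 lower member, Notch genes (21) held 1 and 2, retinoic acid genes (21) held 2 and 0, and planar cell polarity and convergent extension genes (21) held 1 and 1. The means of the mesoderm list spread more within DMSO (0.24 in replicate 2 and -0.27 in replicate 3) than between treatments. Of the 500 genes that fell most from 2 to 6 hpf over both treatments, 370 had a higher mean with TDCIPP, against 54.9% of all genes. Their median was 0.093 (0.132 without DMSO replicate 3), with 35 higher and 0 lower at an unadjusted p under 0.05. As a mean over these genes the pools overlapped, and TDCIPP replicate 2 stood highest. Relative to all pools, the means were -0.01, 0.22 and -0.06 in TDCIPP and -0.04, -0.13 and 0.03 in DMSO replicates 1 to 3. Of the 500 that rose most, 278 had a higher mean, with a median of 0.044 (-0.027 without DMSO replicate 3). At that p 82 of them were higher and 56 lower, again beside 3.37% and 2.0% of all genes. A link to the stage of the embryos was not tested.

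**Figure D4:**
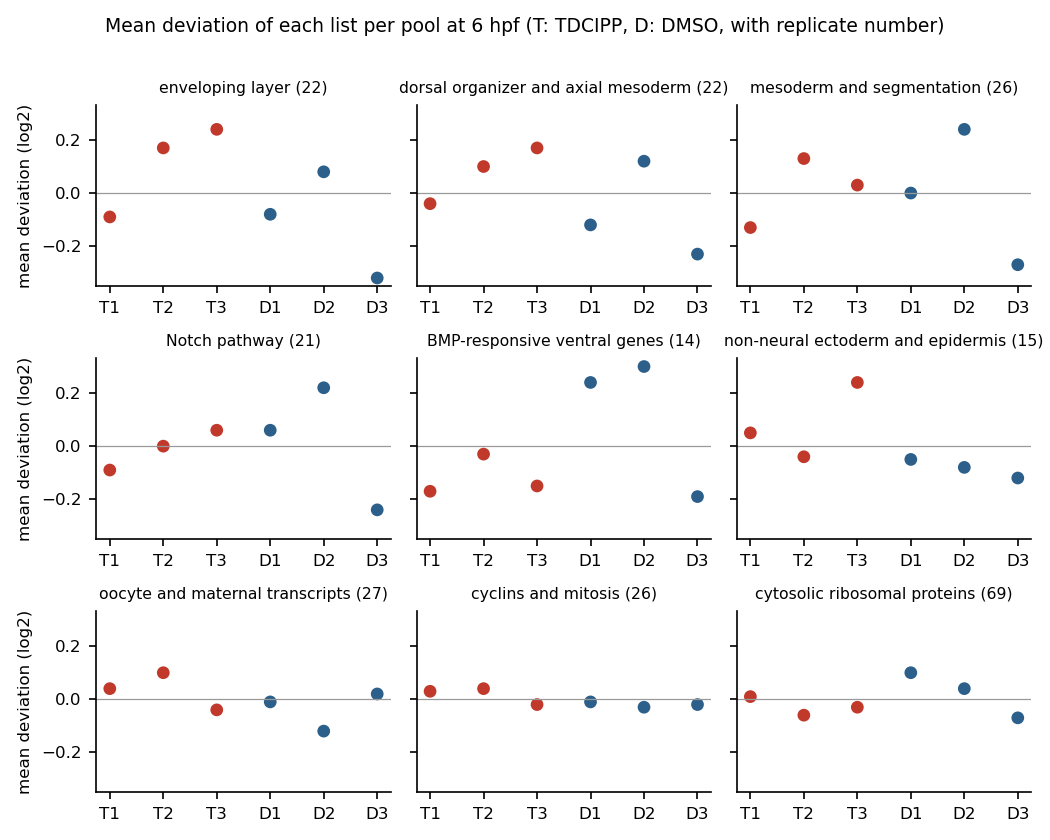
Mean deviation of 9 gene lists in each pool at 6 hpf from the mean of all 6 pools (y axis, log2), with TDCIPP replicates 1 to 3 (T1 to T3) and DMSO replicates 1 to 3 (D1 to D3) on the x axis. DMSO replicate 3 is the lowest pool for the enveloping layer, dorsal organizer, mesoderm, Notch, BMP-responsive ventral, non-neural ectoderm and ribosomal protein lists, and it is not for the maternal transcripts and cyclins.

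Lists of cell functions and toxic responses gave few members at an unadjusted p under 0.05, where 3.37% of all genes were higher and 2.0% lower. Cytosolic ribosomal protein genes (69 measured) had 14 higher and 55 lower means and a median of -0.056 (-0.099 without DMSO replicate 3), but only rpl26 was lower (-0.27) and 0 were higher at that p. Of 103 nuclear genes for subunits and assembly factors of oxidative phosphorylation, 0 were higher and 2 lower. The V-ATPase genes (21), of the proton pump of endosomes and lysosomes, held 17 higher means, a median of 0.113 and 2 higher members at that p, atp6v0d1 (0.32) and atp6v1h (0.26). The subunit gene atp6v0ca was at 10.28, 10.16 and 10.16 in TDCIPP pools and 10.23, 10.21 and 10.15 in DMSO pools, a difference of 0.0035 with overlapping pools. Genes of the unfolded protein response (21) had 18 higher means and heat shock genes (16) had 8, and neither list had any member at that p. In the p53 and apoptosis list (23) only btg2, an antiproliferative gene, was higher (0.32), and in the redox list (23) only duox, an NADPH oxidase gene (0.60). The signal of duox was 9.35, 9.34 and 9.59 in TDCIPP pools and 8.91, 8.88 and 8.68 in DMSO pools, and did not pass the array-level fit (adjusted p = 0.105). In the list of the ATF4 pathway and serine synthesis (23), slc7a3b, a cationic amino acid transporter gene (0.79), and chac1, of glutathione breakdown (0.30), were higher and 0 were lower at that p.

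At 2 hpf each of the 31 genes differed by less in size than at 6 hpf. The genes were chosen by their 6 hpf values, so this describes them and adds no test. For the 52 clusters that passed the array-level fit at 6 hpf, no difference at 2 hpf exceeded 0.394 in size. The largest among the 31 genes was that of slc16a6a, -0.38 (SE 0.20), with the same sign as at 6 hpf, and its 2 hpf signals were 3.31, 3.79 and 3.21 in TDCIPP pools and 4.16, 3.79 and 3.50 in DMSO pools. The 2 hpf signal of foxi1 was 5.53 ± 0.11 in TDCIPP and 5.63 ± 0.19 in DMSO pools, and that of tfap2c was 3.65 ± 0.12 in TDCIPP and 3.85 ± 0.18 in DMSO pools (SD, n = 3 each). All 2 hpf signals of slc16a6a and tfap2c were under the array medians of that time, 4.323 to 4.461. At such low signals a difference can hardly show, so a small one at 2 hpf was largely set in advance. The difference of effects for such a gene then mostly repeats its difference at 6 hpf. The methods describe the arrays of both times as one set of imported files, and changes with time are relative to the other clusters of an array. From 2 to 6 hpf the signal of chrd was 5.45 higher in TDCIPP and 4.78 higher in DMSO embryos, and that of sult6b1 6.27 higher in TDCIPP and 5.54 higher in DMSO embryos. For tfap2c the increase was 2.85 in TDCIPP and 4.26 in DMSO embryos, for bmp4 1.49 in TDCIPP and 2.81 in DMSO embryos, and for bambia 3.84 in TDCIPP and 4.65 in DMSO embryos. The difference between the effects at 6 and 2 hpf passed an adjusted p under 0.1 for 0 clusters from pool means (limma, smallest adjusted p = 0.14, with 2645 clusters at an unadjusted p under 0.05) and for 8 clusters (0.0131%) with arrays tied by pool as in the array-level fit. Of the 52 clusters, 7 were among these 8, and the named genes were foxi1, efnb1 and tfap2c. The other was duox, whose difference was 0.60 at 6 hpf and -0.22 at 2 hpf (adjusted p = 0.0812 for the difference of effects in this fit). For the remaining named genes, slc16a6a among them, a difference between the stages was not shown.

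**Figure D5:**
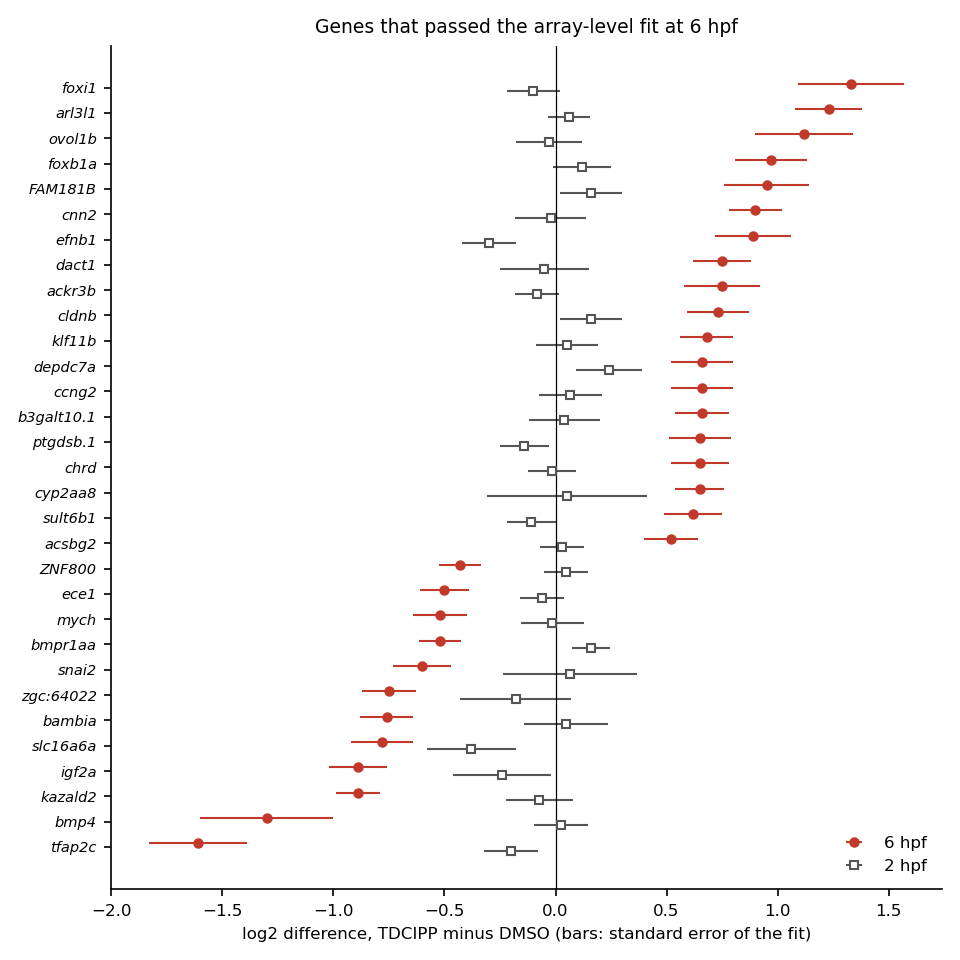
Log2 difference, TDCIPP minus DMSO, with the standard error of the limma fit (x axis) of the 31 genes that passed an adjusted p under 0.1 in the array-level fit at 6 hpf. Filled circles are the 6 hpf values, which chose the genes, and open squares are the 2 hpf values, all within 0.394 of 0.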

How the data were processed

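Expression was measured on 1-colour Zebrafish Gene 1.0 ST arrays, 2 per RNA pool, in 3 pools of each treatment and time. The deposited values are log2 signals in 75212 rows, which the authors obtained in Expression Console by a gene-level run of RMA (Robust Multichip Analysis). The version is not given in the sources used here. RMA subtracts background, equalizes the signal distributions of the arrays and combines the probes of a cluster, so a value is relative to the other clusters of its array. The submitters' processing notes also name the Transcriptome Analysis Console and the build GRCz10. No coordinates of that build were used here, and gene order was taken from the RefSeq assembly named below.

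Rows with an ID below the first annotated one (13972, none with a symbol) were left out, and 61240 clusters were tested, of which 20856 had 1 gene symbol, 805 several and 39579 none. Gene IDs linked 20323 of those with 1 symbol to current symbols. The brightest cluster on average stood for each of the 1377 genes that had more than 1, and 1644 tested rows shared identical values with another row. Columns of other series numbered 0.

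The arrays of a pool were averaged, and TDCIPP was compared with DMSO at 6 hpf in R 4.3.3 by limma 3.58.1, with two-sided moderated tests from lmFit and eBayes, Benjamini-Hochberg adjustment over all clusters and a threshold of 0.1. The p-values of this fit measure the spread between pools. Those of the array-level fit do so much less, since with a correlation of 0.0603 it treats the 2 arrays of a pool nearly as separate samples. The difference of the effects at 6 and 2 hpf came from a fit of all 12 pools. Exact permutation of 3 against 3 pools allows no two-sided p under 0.1 and was not used. As alternatives, each pool was left out in turn, arrays entered singly, tied by a random block for their pool (the array-level fit) or untied, or as array 1 or array 2 only, and the methods' one-way ANOVA was run. Further ones were trend and robust options, a spread shared by the 4 groups, the replicate number as a block, median centring, a second quantile normalization, clusters with 1 symbol, and only clusters whose mean log2 signal reached 5. The fit from pool means was tested on simulated data, and the array-level fit and the other alternatives were not.

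The genes and lists were chosen with earlier results of these data known. The rule for named genes took the genes past the threshold in the array-level fit, the 10 per direction with the smallest p from pool means, up to 4 members of each list with the smallest p, and the genes the study names from its arrays. Of these, szl and psph have no cluster of their own in the annotation used here. Genes named outside this rule are marked in the text. The promoter search that had been planned was not run because no promoter sequences were used here. Tables and figures were made with pandas 2.3.3 and matplotlib 3.10.9.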

Additional observations from a re-analysis of the deposited data

How the results depend on the processing

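The count of clusters past an adjusted p under 0.1 at 6 hpf was 0 from pool means, and it was 52 in the array-level fit, 17 with 1 spread shared by the 4 groups, 14 with eBayes with trend and robust options, 82 with each array as a sample, 68 with the methods' ANOVA on arrays, 2 with the methods' ANOVA on pool means and 1 with array 1 of each pool alone. It stayed at 0 with array 2 alone, quantile normalization again, median centring, clusters with 1 symbol, a mean log2 signal of at least 5 and, chosen after seeing the data, all rows of the table. Leaving out 1 pool gave 0 to 2, with 2 without DMSO replicate 3. Clusters with an unadjusted p under 0.05 at 6 hpf numbered 3356, or 1741 with a mean log2 signal of at least 5 and 1193 with 1 symbol only, where fewer clusters were tested. The replicate block, with the replicate number as a term, gave 0 clusters past the threshold and 4024 at an unadjusted p under 0.05, and changed no call of a named gene. Deviations of same-numbered TDCIPP and DMSO pools correlated at 0.1834, 0.1217 and 0.0888, and those of other numbers at -0.1277 to 0.0102. Each pool thus correlated best with that of its own number. The labels do not say that like numbers belong together, and the main fit did not pair the pools. Whether like-numbered pools share a source of variation was not tested. In the array-level fit, leaving out 1 pool, which was chosen after seeing the data, gave 1 to 74 clusters in place of 52. Not all of these were among the 52. For the difference of the 6 hpf and 2 hpf effects, 0 clusters passed from pool means and 8 with arrays tied by pool. Of the named genes, 6 had another sign under some alternative. These were atp6v0ca (-0.066 with array 1 alone, and -0.037 to 0.025 over the leave-one-out fits, with the lowest value without TDCIPP replicate 1) and, with array 2 alone, dnd1 (-0.028), gstm.1 (0.088), igf1 (0.33), mixl1 (0.0026) and smad1 (0.21), and the cause was not tested. List medians moved by more than the spread between replicates in 35 of 420 settings, over 15 of 35 lists. The number of pools and arrays limits the precision, and the median SD between pool means was 0.152 for clusters with a mean log2 signal under 5 and 0.103 for those at 8 or more.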

Other observations

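Of the 31 genes that passed the array-level fit, 29 could be placed in the gene order of RefSeq's assembly GRCz12tu, and 1 pair had at most 10 protein-coding genes between them. This pair was cldnb and ovol1b on chromosome 21, both higher with TDCIPP and both highest in TDCIPP replicate 3. Of the 8 protein-coding genes between them, 6 were measured, 5 with a higher and 1 with a lower mean with TDCIPP. Their log2 differences ran from -0.07 to 0.27, with unadjusted p from 0.0518 to 0.614 (limma, pool means). None of the 6 was among the 31 genes of the array-level fit.

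For 79 annotated genes with several clusters on the array and an unadjusted p under 0.05 at 6 hpf, the other clusters numbered 86, and 57 of these had the same sign as the brightest cluster.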
